A study of Rattus norvegicus with 20 samples.

Results

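The genes described here are Vim, Emp3, Twist1 and Tagln, which are associated with mesenchymal cells, in cultured rat epithelial cells before and after transplantation into mouse skin. Each was read from the probe set whose only gene symbol in the platform annotation is that gene. They are 4 of the 14506 symbols named on the array, and each has 1 such probe set among the 29215. They were chosen by their higher level in oral mucosa cells after transplantation, so their values in oral mucosa are given as a description with no test. The tests below compare groups of the other 4 tissues. The oral mucosa arrays enter them only through the estimate of spread, which all groups share.

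Vim encodes vimentin, the type III intermediate filament that mesenchymal cells build in place of keratin filaments, and which epithelial cells can also make in culture or during migration. Twist1 is a basic helix-loop-helix transcription factor that binds E-box motifs and is known for driving epithelial-mesenchymal transition (EMT), in which epithelial cells lose junctions and gain motility. Tagln encodes transgelin (SM22), an actin-binding protein of smooth muscle and of stressed or spreading cells, and is a classic target of serum response factor (SRF). Emp3 encodes a tetraspan membrane protein of the epithelial membrane protein and Pmp22 family.

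The cells came from oral mucosa, vagina, oesophagus, foot pad and trachea of Sprague-Dawley rats that carry an EGFP transgene under an actin promoter (green rat CZ-004), aged PN200 (postnatal day 200). Before transplantation they were grown on irradiated mouse 3T3-J2 feeder cells. For the groups after transplantation, such cells were injected into skin of newborn OF1 mice that was grafted onto athymic mice, and the rat cells were taken back from the grafts months later and cultured in the same way. Each of the 10 groups (5 tissues at 2 stages) is a pair of parallel cultures, so the p-values below measure only the spread between duplicate cultures and not that between animals or grafts. All cells were sorted for EGFP, which leaves out mouse feeder and host cells, while rat cells of any type would pass. The sample titles carry Roman numerals that the labels do not explain, and only in vagina is the numeral the same at both stages. The study numbers its passages with Roman numerals, so a difference of passage and the effect of transplantation cannot be told apart in the other 4 tissues. All titles after transplantation also carry a code beginning with RC that the labels do not explain. As the recovered cells were cultured again, the shared numeral does not show that the vagina cultures were matched in passage.

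Values are log2 RMA values, a background-corrected, quantile-normalised measure of probe set brightness, and 1 unit stands for a factor of 2. Levels of different genes cannot be set against each other on this scale. Pearson's r between duplicate arrays was 0.991 to 0.996 over all probe sets. The table has no detection calls. For orientation, 40% of all probe sets had a mean under 4.77 and the median was 5.44, so that the lowest levels of Twist1 and Tagln lie in the middle of the array's values. Whether those levels are signal or background cannot be told from the table. Keratinocyte markers were high in all groups. Krt14, the basal keratin, lay between 13.05 and 13.33, and Tp63 between 9.03 and 10.05. After transplantation the foot pad group stood apart, with a mean Euclidean distance over all probe sets of 84.4 to the groups of the other tissues at that stage, against 66.3 to 74.1 for those. Before transplantation its distance was 75.2, against 61.5 to 76.0. Comparisons between tissues are therefore also given without the foot pad arrays after and without those before, while the changes within foot pad, of related genes too, have no such counterpart.

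The bases before the start site are shown for the genes with an entry in the RefSeq promoter table (GRCr8). The reason is that Vim and Emp3 had the most similar profiles across the 10 groups and Twist1 is the regulator among the 4 genes. The bases are written 5′ to 3′ on the strand of the gene. Capitals mark matches to promoter motifs searched on both strands, namely the TATA box spelled TATAAA, the CCAAT box, the GC box spelled GGGCGG and the E-box, whose letters are CANNTG.
Vim, chr17:81577011-81577260, plus strand: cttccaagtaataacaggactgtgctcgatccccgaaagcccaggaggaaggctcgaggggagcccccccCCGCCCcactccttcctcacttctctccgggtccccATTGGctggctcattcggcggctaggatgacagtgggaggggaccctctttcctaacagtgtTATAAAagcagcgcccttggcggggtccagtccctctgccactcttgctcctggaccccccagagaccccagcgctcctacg
Emp3, chr1:105528371-105528515, minus strand: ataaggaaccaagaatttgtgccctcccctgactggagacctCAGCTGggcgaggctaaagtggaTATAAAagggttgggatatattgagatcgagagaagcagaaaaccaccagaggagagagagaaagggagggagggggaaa
Twist1, chr6:56402059-56402308, plus strand: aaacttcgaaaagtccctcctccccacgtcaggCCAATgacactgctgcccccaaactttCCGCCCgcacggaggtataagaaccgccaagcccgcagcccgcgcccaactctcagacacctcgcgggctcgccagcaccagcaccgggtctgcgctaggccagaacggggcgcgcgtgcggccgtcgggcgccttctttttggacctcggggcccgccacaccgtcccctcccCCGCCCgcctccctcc
The start site that the promoter table lists for Emp3 lies inside the span of the gene, and only the bases outside that span are shown.

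Vim held a TATAAA from base −82 to −77 before its start site, and Emp3 held one from −185 to −180. This motif was found in 14.2% of 33469 promoter windows of 300 bases. Vim also had a CCAAT box on the reverse strand at −144 to −140 and a GC box on the reverse strand at −180 to −175. Twist1 had a CCAAT box at −217 to −213 and GC boxes on the reverse strand at −190 to −185 and −16 to −11. CCAAT occurred in 37.5% and GGGCGG in 33.1% of all windows. Emp3 had a CCAAT box at −5 to −1 and a GC box at −21 to −16, both in the part not shown. Its E-box at −208 to −203 is of a kind present in 72.1% of windows. Positions of Emp3 count from the listed start site inside the gene. TGANTCA (an AP-1 site, in 7.33% of windows) and the CArG box bound by SRF (in 1.64%) had no match in the 3 windows. These matches describe the letters only.

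In oral mucosa, Vim went from the lowest level of any group to the highest. Its values were 6.70 and 6.26 in the arrays before and 11.51 and 11.64 in those after transplantation. The means differ by 5.10, or 34.2-fold, the second largest increase of all probe sets in that tissue. In foot pad Vim was high at both stages, with 10.69 and 10.89 before and 10.07 and 10.04 after. In trachea it went from 10.09 and 10.08 to 9.143 and 8.999. Both tissues thus had less Vim after than before, with no overlap of the arrays. In vagina the values were 9.53 and 9.44 before and 8.967 and 8.997 after. Oesophagus, with 7.06 and 7.41 before and 8.13 and 7.83 after, was the tested tissue with the lowest Vim at both stages. Ordered by level, oral mucosa after (11.58) stood above foot pad before (10.79), then trachea before (10.09) and foot pad after (10.05), vagina before (9.48), trachea after (9.07) and vagina after (8.98), oesophagus after (7.98), oesophagus before (7.24) and oral mucosa before (6.48). Trachea before and foot pad after, and likewise trachea after and vagina after, differed by less than the pooled SD of duplicates (0.158), while every other pair of neighbours was further apart than that and did not overlap.

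Emp3 followed Vim in oral mucosa. Its arrays read 6.44 and 6.41 before and 9.95 and 9.95 after, a difference of 3.53 or 11.6-fold and the third largest increase in that tissue. Foot pad before held the highest Emp3 of all, with 11.10 and 11.16, against 9.85 and 9.72 after. In vagina the gene went the other way, from 8.40 and 8.34 to 9.92 and 9.94, which reached the level of oral mucosa after. In oesophagus it went from 7.23 and 6.90 to 8.20 and 8.12. Trachea changed little, from 9.08 and 9.23 to 8.80 and 8.87. In order of level, foot pad before (11.13) was followed by oral mucosa after (9.95) and vagina after (9.93), foot pad after (9.78), trachea before (9.15), trachea after (8.84), vagina before (8.37), oesophagus after (8.16), oesophagus before (7.06) and oral mucosa before (6.42). Only oral mucosa after and vagina after were closer than the pooled duplicate SD of 0.0901.

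Twist1 was raised above a common low level in 2 groups. They are foot pad before, with 7.337 and 6.996, and oral mucosa after, with 6.95 and 6.95. The means of the other 8 groups lay between 5.58 and 6.05, and no neighbours among them differed beyond the spread of duplicates. In oral mucosa before, the duplicates read 5.24 and 5.92, the widest gap of this gene, so the difference of 1.37 (2.59-fold) after transplantation ranged from 1.04 to 1.71 with 1 array left out in turn. Foot pad after read 5.61 and 5.82, vagina 5.91 and 5.92 before and 5.995 and 5.78 after, oesophagus 5.58 and 5.91 before and 5.82 and 6.01 after, and trachea 6.12 and 5.98 before and 5.96 and 5.79 after. Arrays of the stages overlapped in vagina and oesophagus.

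Tagln had its highest level in trachea before, with 7.48 and 7.70, and in vagina before, with 6.92 and 6.72. After transplantation trachea read 6.44 and 6.17 and vagina 5.61 and 5.56. Oral mucosa went from 5.15 and 5.03 to 6.32 and 6.38, a difference of 1.27 or 2.40-fold. Its level after was then the third highest and close to that of trachea after, with means of 6.35 and 6.30. Foot pad read 6.07 and 5.62 before and 5.49 and 5.24 after. Oesophagus was low at both stages, with 4.85 and 5.12 before and 5.08 and 4.91 after, and differed from oral mucosa before (5.09) by less than the spread of duplicates. In this gene the foot pad was not among the high groups, unlike in the other 3.

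**Figure D1:**
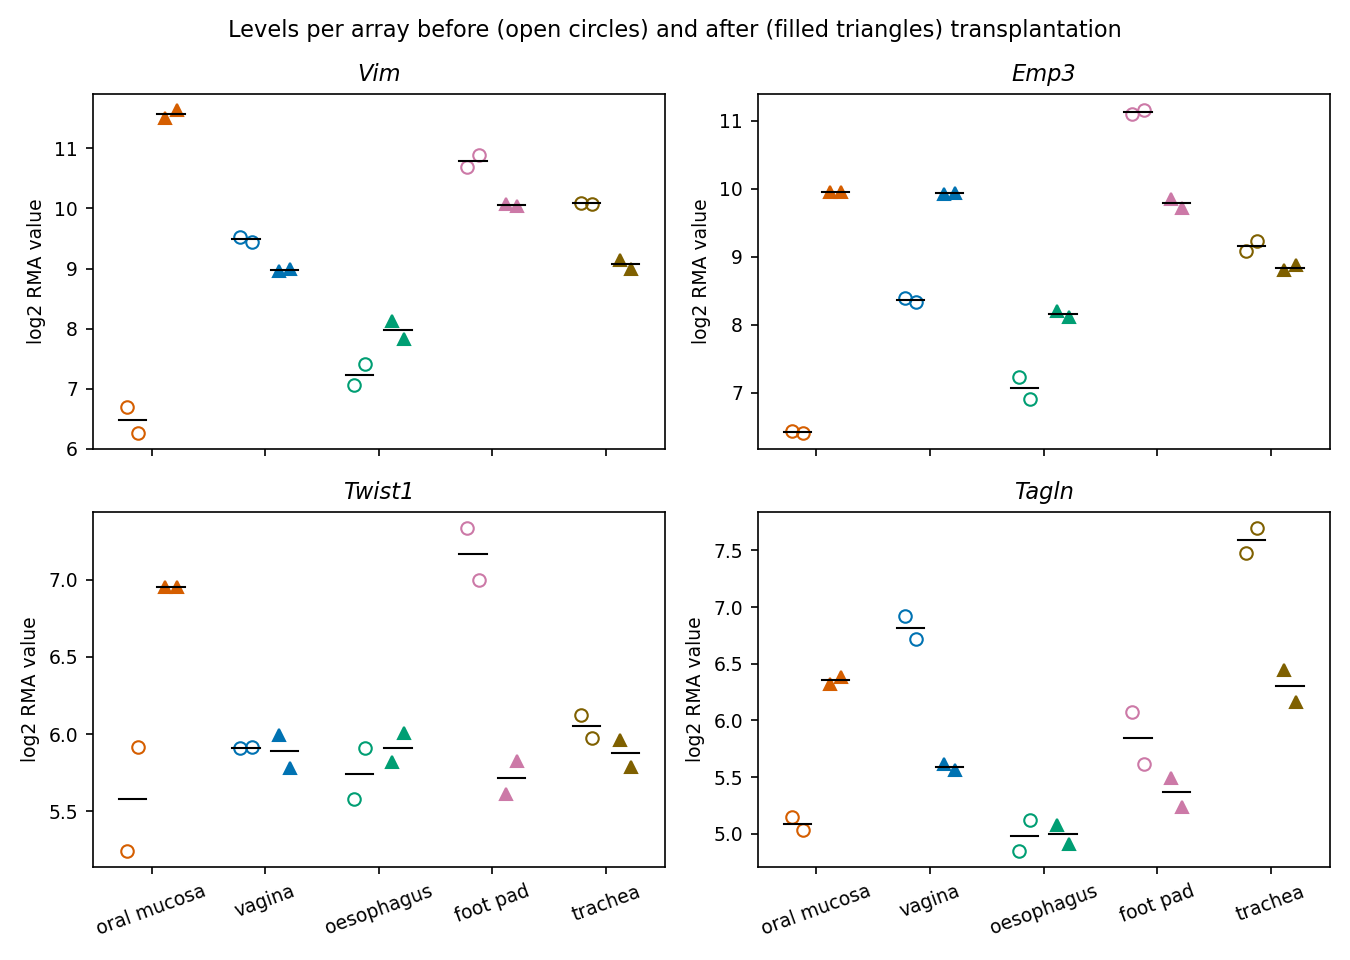
Log2 RMA value of each array (vertical axis, a separate scale for each gene) by tissue of origin, where open circles are cultures before transplantation, filled triangles those after it, and lines the means of 2. In oral mucosa both arrays after lie above both before for each gene, while foot pad arrays after lie below those before.

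Whether these genes also responded to transplantation outside oral mucosa was tested with limma over all probe sets, and a call needed an adjusted p below 0.05 together with a change beyond 2-fold. No gene rose in all tissues. Emp3 rose in vagina and oesophagus, Tagln fell in vagina and trachea, Emp3 and Twist1 fell in foot pad, and Vim fell in trachea. In bulk cultures, fewer cells of a type and less RNA per cell cannot be told apart.

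In vagina 1 of the 4 genes rose and 1 fell, where 0.534% of all probe sets rose and 1.68% fell. Emp3 rose by 1.56 ± 0.10 (SE, 2 arrays per stage; 2.96-fold, adjusted p 1.21e-07). Tagln fell by 1.23 ± 0.16 (2.35-fold, adjusted p 8.02e-05). Vim differed by −0.50 ± 0.15 (adjusted p 0.0298), which is under 2-fold. Twist1 differed by −0.02, with a 95% interval from −0.43 to 0.38.

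In oesophagus 1 gene rose and 0 fell, against 0.517% and 0.558% of all probe sets. Emp3 rose by 1.09 ± 0.10 (2.13-fold, adjusted p 1.2e-05). This is just past 2-fold, and without oesophagus before replicate 2 the change was 0.93 and no longer called. Vim was higher by 0.74 ± 0.15 (adjusted p 0.00407), which is under 2-fold. The other two differed by 0.17 (Twist1, interval −0.24 to 0.57) and 0.01 (Tagln, interval −0.33 to 0.35).

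In foot pad 0 genes rose and 2 fell, against 4.28% and 2.64% of all probe sets. Twist1 fell by 1.45 ± 0.19 (2.73-fold, adjusted p 3.08e-05) and Emp3 by 1.35 ± 0.10 (2.54-fold, adjusted p 1.49e-07). Vim differed by −0.74 ± 0.15 (adjusted p 0.00138) and Tagln by −0.48 ± 0.16 (adjusted p 0.0298), both under 2-fold. The Tagln difference ranged from −0.71 to −0.25 with 1 array left out in turn, and was −0.25 (adjusted p 0.329) without foot pad before replicate 1.

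In trachea 0 genes rose and 2 fell, against 0.496% and 0.883% of all probe sets. Tagln fell by 1.28 ± 0.16 (2.44-fold, adjusted p 0.00011). Vim fell by 1.01 ± 0.15 (2.02-fold, adjusted p 0.000445), which is at the 2-fold limit: without trachea after replicate 2 the difference was −0.94 and not called. Emp3 differed by −0.31 ± 0.10 (adjusted p 0.0495) and Twist1 by −0.17 (interval −0.58 to 0.23). For comparison, 1.51% of all probe sets were over 2-fold higher and 2.17% over 2-fold lower in oral mucosa after transplantation, the contrast by which the genes were selected. Without the foot pad arrays after transplantation, or without those before, the calls in vagina, oesophagus and trachea were the same. Foot pad arrays enter these contrasts only through the estimate of spread, so the differences themselves could not change.

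**Figure D2:**
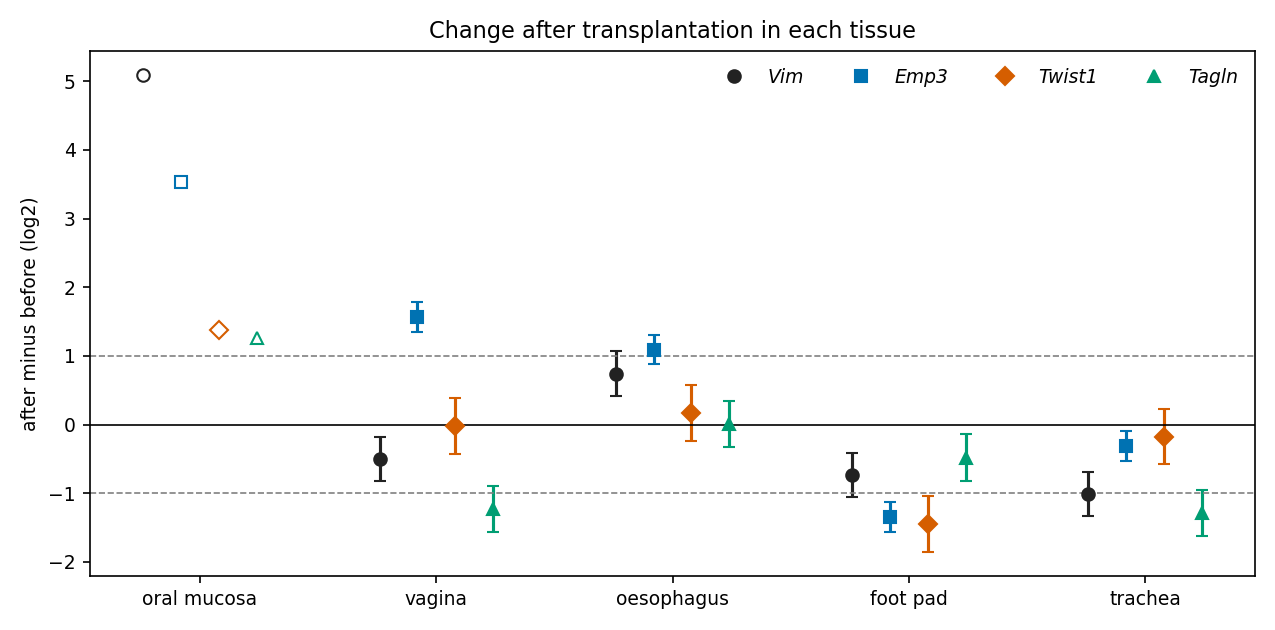
Difference after minus before (log2, vertical axis) of the 4 genes in each tissue, with 95% intervals of limma's fit in the tested tissues and open symbols without interval in oral mucosa, where no test was made. Dashed lines mark 2-fold. Tagln lies below the lower line in vagina and trachea, and Emp3 lies above the upper line in vagina and oesophagus.

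How far the tissues differed was asked at each stage over vagina, oesophagus, foot pad and trachea. Before transplantation all 4 genes differed between these tissues (F test, largest difference over 2-fold), as did 5.03% of all probe sets. The largest differences were those of oesophagus below foot pad for Emp3 (4.06, 16.7-fold, adjusted p 3.09e-11), Vim (3.55, 11.8-fold, adjusted p 3.45e-09) and Twist1 (1.42, 2.68-fold, adjusted p 0.000232), and of oesophagus below trachea for Tagln (2.61, 6.09-fold, adjusted p 1.23e-07). Without the foot pad arrays before transplantation, Vim (2.85), Emp3 (2.09) and Tagln (2.61) still passed, while Twist1 gave 0.31 (adjusted p 0.515) and did not. After transplantation 3 of the 4 genes differed, where 9.32% of all probe sets did. The largest difference was now 2.07 for Vim (adjusted p 7.37e-07), again oesophagus below foot pad. For Emp3 it was 1.78 (adjusted p 1.78e-08), oesophagus below vagina, and for Tagln 1.31 (adjusted p 8e-05), oesophagus below trachea. Twist1 did not pass (adjusted p 0.845), and its largest difference, 0.20 between oesophagus and foot pad, had an interval of −0.21 to 0.60. The spread between the 4 tissues was therefore numerically smaller after than before for each gene. Without the foot pad arrays after transplantation, the largest differences after were 1.09 for Vim, 1.78 for Emp3 and 1.31 for Tagln, all called, and 0.04 for Twist1.

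The responses themselves also differed between these tissues for 4 of 4 genes, as for 13.7% of all probe sets. For Emp3 the responses of vagina and foot pad were 2.91 apart (adjusted p 1.13e-08), and for Vim those of oesophagus and trachea were 1.76 apart (adjusted p 7.37e-05). For Twist1 the gap was 1.62, between oesophagus and foot pad (adjusted p 0.000975), and for Tagln 1.29, between oesophagus and trachea (adjusted p 0.000798). Without the foot pad arrays after transplantation, Vim, Emp3 and Tagln still passed, with 1.76, 1.88 and 1.29. Twist1 then gave 0.34 (adjusted p 0.688), so that its difference in response rests on the foot pad. Leaving out the foot pad arrays before instead gave the same gaps and calls, with an adjusted p of 0.652 for Twist1. The gaps had to be the same, as either omission takes foot pad out of the responses.

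Across the 10 group means Vim and Emp3 had the most similar levels of any pair of the 4 (Pearson's r = 0.88, and 0.85 over the 8 groups without oral mucosa). Vim correlated with Twist1 at 0.75 (0.59 without oral mucosa) and with Tagln at 0.60 (0.55), and Emp3 with Twist1 at 0.71 (0.68). Tagln stood further off, at 0.34 with Emp3 (0.16) and 0.28 with Twist1 (0.13). These are descriptions over groups that share their normalisation and, in pairs, the tissue, and the genes share the higher level in oral mucosa after transplantation by which they were chosen. Among 3389 named genes whose group means ranged over more than 1 log2 unit, Emp3 was the gene most like Vim, ahead of Abr (0.88), Mylip (0.84), Galnt10 (0.83) and Clic4 (0.83). Myo5b and Bdh1 ran most opposite to Vim, both at −0.87. Emp3 was closest to Vim, Slco3a1 (0.88), Lrrc49 (0.85), Clic4 (0.79) and C1s (0.79), and most opposite to Klhl5 and to Ppl, which encodes the cornified envelope protein periplakin (both −0.93).

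Twist1 was most like Zeb1, another EMT transcription factor that represses E-cadherin, at r = 0.97. As for the other genes, the group means include oral mucosa, by which Twist1 was chosen. These likenesses were not computed without oral mucosa and are no independent support. Cyria (0.95), Nfasc (0.93), S100a4 (0.92), a calcium-binding protein of motile cells, and Snx10 (0.91) came next. Sqor (−0.92) and Rab25 (−0.96), a small GTPase of epithelial membrane traffic, ran opposite. Zeb1 had the same pair of high groups as Twist1, with a mean of 6.203 in foot pad before and 6.52 in oral mucosa after, against 4.12 in oral mucosa before and 4.34 in foot pad after. Tagln was most like Dapk1 (0.92), Simc1 (0.92), Nfkbie (0.91), Cftr (0.90), the chloride channel of secretory epithelia, and Csf1 (0.90), and most opposite to Thbd (−0.91) and Ephx3 (−0.92).

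**Figure D3:**
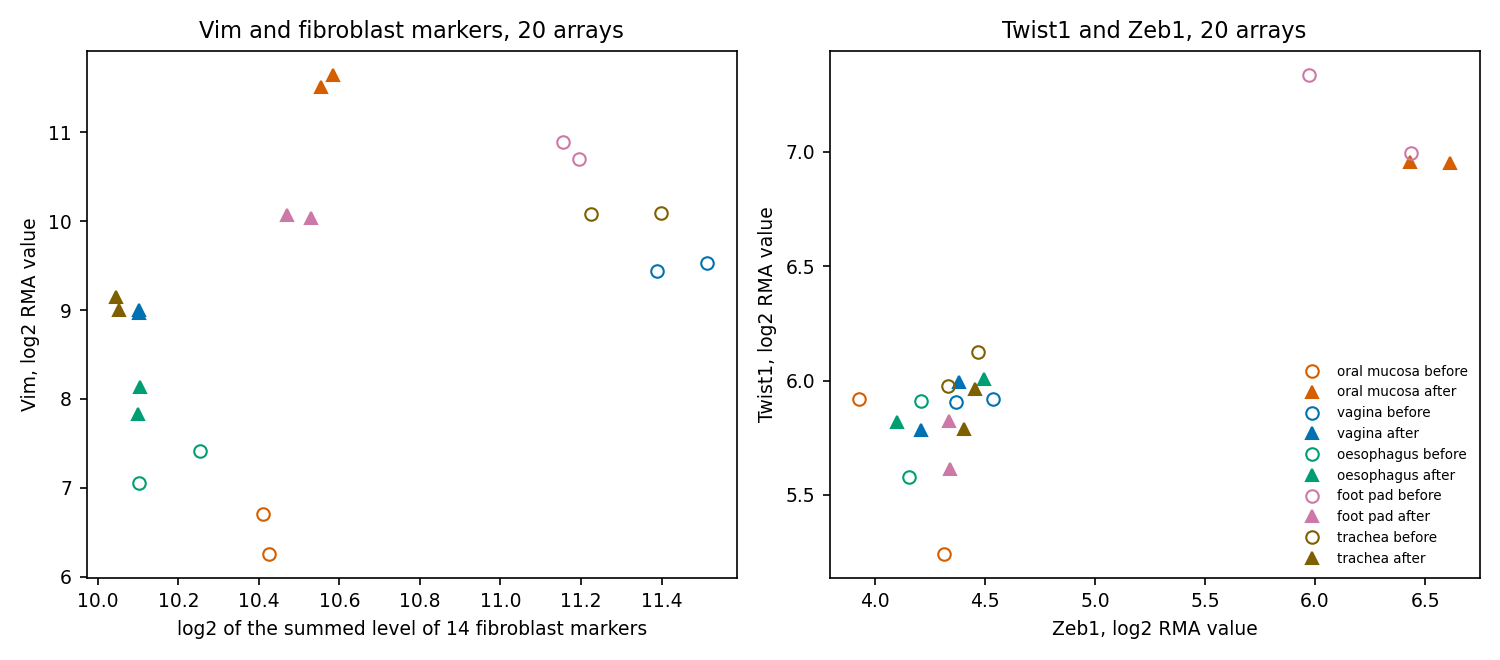
Left, Vim against the log2 of the summed linear level of 14 fibroblast markers, and right, Twist1 against Zeb1, each point 1 of 20 arrays and all axes in log2 RMA units (open circles, before; filled triangles, after). Oral mucosa after has the highest Vim at a fibroblast marker level of 10.55 to 10.58, and foot pad before and oral mucosa after lie apart at high Twist1 and Zeb1.

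The relatives of each gene were then read in the same fit. Of all probe sets, 0.534% rose and 1.68% fell in vagina, and 0.517% and 0.558% in oesophagus. In foot pad 4.28% rose and 2.64% fell, and in trachea 0.496% and 0.883%. In oral mucosa 1.51% were over 2-fold higher and 2.17% over 2-fold lower. The counts in the lists below are to be read beside these shares. Of the 7 other non-keratin intermediate filament genes (Des, Gfap, Ina, Nes, Prph, Sync and Synm) 0 were called in any of the 4 tested tissues, and 0 were over 2-fold apart in oral mucosa, where their changes ran from −0.32 to 0.38. Their group means lay between 3.64 (Ina, trachea before) and 5.40 (Des, vagina before), all under the median of 5.44 given above. Counts of 0 in a short list at such levels say little, and no difference from Vim was tested. Of the 4 other measured genes of the Emp and Pmp22 family, Pmp22, the peripheral myelin protein, fell in vagina (by 2.34), foot pad (by 1.79) and trachea (by 1.48), and Emp1 rose in foot pad by 1.01. In vagina, where Emp3 rose, its relative Pmp22 therefore fell. In oral mucosa Emp1 was lower by 1.15 on the log2 scale, from 12.55 to 11.40.

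Of the 8 other EMT transcription factors measured, Prrx1, a homeobox factor of mesenchyme, fell in vagina (by 1.64), foot pad (by 1.997) and trachea (by 1.32). Zeb1 fell in foot pad by 1.86 (adjusted p 8.05e-07), where Twist1 also fell, and Foxq1 rose there by 2.10. In oesophagus 0 of the 8 passed, where 0.517% of all probe sets rose and 0.558% fell. In oral mucosa Zeb1 was higher by 2.40 and Zeb2 by 1.32, and Foxq1 differed by −1.05. Snai2, which encodes Slug, was called in none of the tested tissues.

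Smooth muscle and actin-linked genes, many of them known SRF targets like Tagln, gave few calls. Of 12 other contractile genes 0 were called in vagina, oesophagus and trachea, and in foot pad Myocd, the SRF cofactor myocardin, fell by 1.81. Acta2, smooth muscle actin, read 8.33 before and 8.34 after in oral mucosa. Of 10 SRF and actin-linked genes, Actn1 fell by 1.42, Fhl2 by 1.25 and Flna by 1.12 in foot pad, and 0 were called in the other 3 tested tissues. In oral mucosa Ccn2 was the single gene of both lists past 2-fold, with −1.20. In trachea the 10 SRF and actin-linked genes had a median of −0.32, with Ccn2 at −0.65 (adjusted p 0.000632) and Srf at −0.58 (adjusted p 0.000934), and in vagina Ccn1 stood at −0.76 (adjusted p 1.34e-05) and Ccn2 at −0.76 (adjusted p 0.000109), all under 2-fold. As 1.68% of all probe sets fell in vagina and 0.883% in trachea, counts of 0 in lists of this length say little, and no difference from Tagln was tested.

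Of 12 other mesenchymal genes used to follow EMT, 6 fell in vagina, 7 in foot pad and 4 in trachea, with median changes of −0.98, −1.37 and −0.68, while 0 were called in oesophagus (median 0.07). Of all probe sets 1.68%, 2.64%, 0.883% and 0.558% fell in vagina, foot pad, trachea and oesophagus. The medians of all probe sets in these tissues were 0.06, −0.03, 0.01 and −0.01. Lox, which cross-links collagen, fell by 2.72 in vagina, fell by 1.91 in foot pad and fell by 2.55 in trachea. The changes of Lgals1 (galectin-1) in the same tissues were −1.67, −2.12 and −1.66. Sparc, a matrix glycoprotein, fell by 3.47 in vagina, and Wnt5a by 3.80 and S100a4 by 2.28 in foot pad, where Tgfbi rose by 3.43. In oral mucosa Lgals1 was higher by 2.28, S100a4 by 1.74 and Tgfbi by 1.07, and the median of the list was 0.19 against 0.05 for all probe sets.

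Of 16 epithelial identity genes 5 rose in foot pad, where Twist1 and Zeb1 fell and 4.28% of all probe sets rose. They are the adhesion molecule Epcam (3.00), the tight junction genes Cldn4 (2.18) and Ocln (1.996), the epithelial regulator Ovol1 (2.10) and the splicing factor Esrp1 (1.09). In vagina and oesophagus 0 were called, and in trachea Cldn7 fell by 2.25. The median change of the 16 was 0.78 in foot pad, −0.30 in vagina, −0.38 in oesophagus and −0.13 in trachea. In oral mucosa 4 of the 16 were over 2-fold lower, namely Ocln (−1.47), St14 (−1.26), Rab25 (−1.11) and Cldn4 (−1.03), and the median was −0.82. There 2.17% of all probe sets were over 2-fold lower. Of 10 TGF-beta ligands, receptors and SMADs, Tgfb2 and Inhba fell in vagina (−1.44 and −1.28) and Tgfbr3 fell in trachea by 1.12. Of all probe sets 1.68% fell in vagina and 0.883% in trachea. Tgfb3 was higher by 2.42 in oral mucosa.

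**Figure D4:**
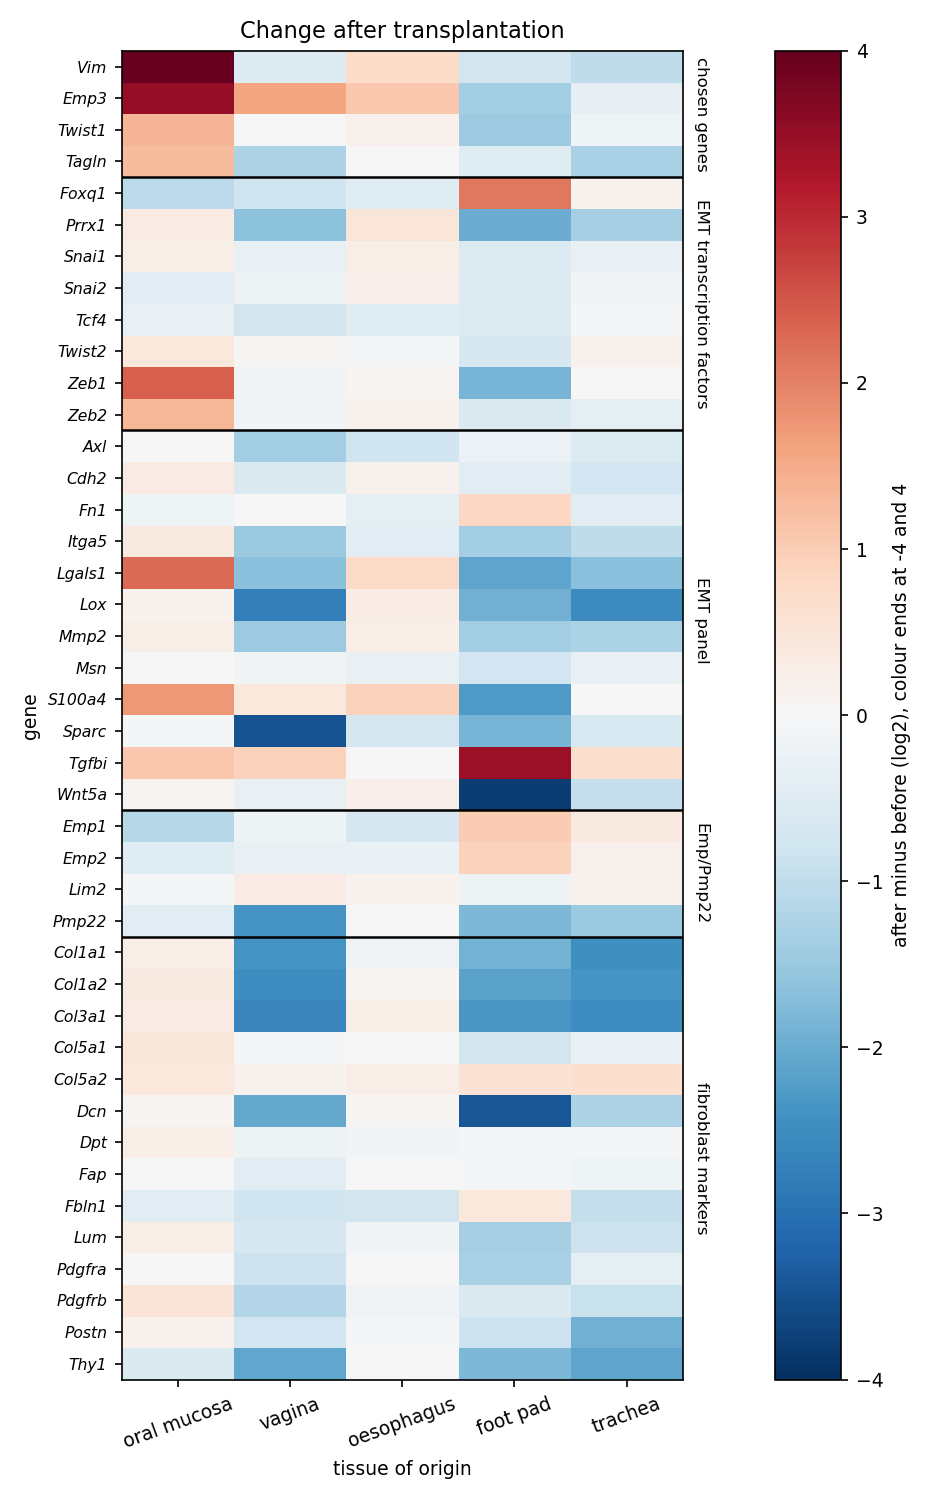
Difference after minus before (log2, colour) of the 4 genes and of 4 lists of related genes (rows) in the 5 tissues (columns), with colour ending at −4 and 4, which Vim exceeds in oral mucosa. Lox, Lgals1, Prrx1, Col1a1, Col1a2 and Col3a1 are blue in vagina, foot pad and trachea and pale in oesophagus.

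Fibroblast markers moved with these genes in part. Of 14 such markers 6 fell in vagina, 7 in foot pad and 6 in trachea, 0 were called in oesophagus, and in oral mucosa 0 were over 2-fold apart. The shares of all probe sets that fell were 1.68%, 2.64%, 0.883% and 0.558% in the 4 tested tissues in that order. The log2 of their summed level went from between 11.39 and 11.51 to 10.10 in vagina, from 11.16 to 11.20 down to 10.47 to 10.53 in foot pad, and from 11.22 to 11.40 down to 10.05 in trachea. The sum is of linear values, so genes with high values weigh most, such as Col5a2 (8.62) and Fbln1 (8.53) in oral mucosa before. In foot pad, where the sum fell, these 2 were higher after by 0.57 and 0.43. Col1a1, the main collagen of fibroblasts, fell from 9.23 to 6.84 in vagina, from 8.56 to 6.68 in foot pad and from 9.26 to 6.81 in trachea, and Dcn (decorin) fell in the same tissues. The falls of Tagln in vagina and trachea, of Vim in trachea and of Emp3 and Twist1 in foot pad thus came with lower fibroblast markers, whose part in these results was not tested. Emp3 rose in vagina while those markers fell. In oral mucosa the summed level was 10.41 to 10.43 before and 10.55 to 10.58 after, with Col1a1 at 6.93 and 7.19 and Dcn at 3.75 and 3.87, so the higher Vim came with fibroblast markers that differed by less than 2-fold.

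Markers of other cell types changed little. Ptprc (CD45), which defines leukocytes, lay between 3.28 and 3.78 and the endothelial Pecam1 between 4.24 and 4.71 in all 10 groups, below the level of 4.77 given above. Depending on the group, 4 to 6 of 7 endothelial and 8 to 10 of 11 leukocyte markers were below it. Others were above it in all groups, as the endothelial Tie1 (5.09 to 5.98) and the leukocyte marker Cd68 (5.38 to 7.89). Of 7 endothelial markers 0 were called in the tested tissues. Of 11 leukocyte markers Cd68, a lysosomal protein of macrophages, fell in vagina by 1.07, where 1.68% of all probe sets fell. Cd68 was also lower in oral mucosa, with a change of −1.96. Of 5 melanocyte markers measured, Mitf rose in foot pad by 1.87, where 4.28% of all probe sets rose. Of 8 keratinocyte markers 0 were called, and all lay above 4.77 in every group. Beside the shares of all probe sets given above, counts of 0 in lists of this length say little.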

How the data were processed

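Gene expression was measured on Affymetrix Rat Gene ST arrays, 2 per group, from RNA of EGFP-sorted cultures. The deposited values are log2 values of 29215 probe sets, which the authors made with RMA in Affymetrix Expression Console. Tool versions are not given in the sources, nor are the arrays normalised together. Quantile normalisation assumes similar distributions, and median-polish summaries compress large and low-level changes.

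Names came from the platform annotation (15310 probe sets with 1 symbol, 323 with several, 13582 unnamed here). A RefSeq table of GRCr8 held 15279 of them and changed 0 symbols. Groups came from the tissue and stage in the labels. All 10 groups were fitted together with limma 3.58.1 (lmFit and eBayes, statmod 1.5.0, R 4.3.3; 10 residual and 3.64 prior degrees of freedom), with Benjamini-Hochberg adjustment over all probe sets within each contrast. F tests compared 4 tissues. Calls needed an adjusted p under 0.05 and a fold over 2. On data simulated for the vagina contrast of this fit, 99% of 200 probe sets changed by 2 log2 units were called. Smaller changes, such as those of the 4 genes in the tested tissues, were not simulated. The number of arrays limits the precision.

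The genes and lists were chosen with earlier results of these data known. Lists covered intermediate filaments, EMT factors, an EMT panel, contractile, SRF-linked, Emp and Pmp22, epithelial and TGF-beta genes, and markers of fibroblasts, endothelium, leukocytes, melanocytes and keratinocytes. From each, up to 4 called genes per tissue with the largest change were to be named, with Col1a1, Dcn, Pecam1 and Ptprc, and per gene the 5 most and 2 least correlated symbols. Other named genes (Acta2, Snai2, Srf, Ccn1, Ccn2, Krt14, Tp63, Esrp1, Tie1, Col5a2, Fbln1, and those past 2-fold in oral mucosa) were chosen after their values were seen. Alternatives were tried for the fit, the scaling, the filter and each replicate.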

Additional observations from a re-analysis of the deposited data

Results flagged for a closer look

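The responses to transplantation differed between vagina, oesophagus, foot pad and trachea for each of the 4 genes, tested as a difference of responses in limma's fit. The largest gap between the responses of any pair of these tissues was 2.91 on the log2 scale for Emp3, 1.76 for Vim, 1.62 for Twist1 and 1.29 for Tagln. Emp3 rose in vagina by 1.56 and fell in foot pad by 1.35. Such differences were found for 13.7% of all probe sets.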

How the results depend on the processing

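Of 388 values of the 32 results under alternatives, 378 were kept. For tested results that means the same direction and the same side of the threshold. In oral mucosa, where no test was made, it means a move by less than the SD of the oral mucosa duplicates. That SD is not the pooled one over all 10 groups given above. The alternatives covered the filter on low values, the scaling, the arrays in the fit and each left-out replicate. The filter, changes to the fit and leaving out arrays of other tissues could not move a difference within a tissue, only its p. Leaving out 1 of 2 arrays moves their mean by less than the SD of the 2, so the leave-one-out values of oral mucosa could not fail either. Part of this count was therefore fixed in advance. With arrays centred on their medians, the oral mucosa differences were 3.39 for Emp3 and 1.13 for Tagln. Both kept their direction but moved by more than the SD of the oral mucosa duplicates. With 1 array left out in turn, the change of Emp3 in oesophagus ranged from 0.93 to 1.25 and that of Vim in trachea from −1.09 to −0.94, each not called at the smallest size (without oesophagus before replicate 2 and without trachea after replicate 2). Tagln in oesophagus ranged from −0.13 to 0.15 and Twist1 in vagina from −0.13 to 0.082, both not called, and changed sign. Tagln was at −0.13 without oesophagus before replicate 1 and −0.07 without oesophagus after replicate 1, and Twist1 was at 0.082 without vagina after replicate 2. Alternatives chosen after seeing the data left out the foot pad arrays after transplantation from the tests between tissues after and of the response, or those before from the tests of all tissues. The Twist1 response gap was then 0.34 either way, and without the arrays before its largest difference before was 0.31, none of them called. The causes were not tested, except that fewer arrays entered these fits. The replicate numbers did not pair the samples, as deviations of same-numbered arrays correlated at −0.15 to 0.03. With the replicate block, calls over all probe sets were 644 in vagina against 646, 309 against 314 in oesophagus, 2023 against 2022 in foot pad and 403 against 403 in trachea, and no call of the 4 genes changed (Emp3 in vagina 1.56, adjusted p 2.89e-05). In oral mucosa, at −0.15, no crossed pairing was fitted because no test was made there. The alternative of another probe set per gene was not run because each gene has 1. The table gives no signal over background, so how far weak signal limits Twist1 and Tagln is unknown.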
